A study of Mus musculus with 6 samples.

Results

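*Pax9*, *Nkx2-1*, *Barx1*, *Barx2*, *Pitx1*, *Pdx1*, *Cdx1*, *Cdx2* and *Nkx6-3* encode transcription factors that help to pattern the foregut and the gut behind it, and they were compared between mouse esophageal and stomach organoids. The 9 genes were taken by name, with earlier results of these data known, out of 34298 gene names on the arrays, and every non-control probe that carries one of the names was kept, 12 of 55681 probes and 21 of 59305 non-control spots. Each of the 6 single-color Agilent mouse arrays held RNA from one culture, 3 of esophageal and 3 of stomach epithelial organoids, which are three-dimensional cultures grown in Matrigel from tissue stem cells. The labels number the mice 1, 2 and 4 in both tissues, so each mouse gave 1 array of each tissue, and they mark all cultures as untreated and at passage 0. Organoids were harvested on day 8, except those of stomach replicate 4, which were harvested on day 7.

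No transgene or deletion is named for these samples, and the methods name female wild-type C57BL/6 mice without tying the strain or an age to single arrays. Stomach organoids came from glands of the corpus, the acid-secreting body of the stomach, and were grown with WNT3A, R-spondin1 and gastrin. Esophageal organoids were grown without these and with forskolin, so that tissue and medium cannot be told apart. Both tissues carried their defining markers. Each of the 8 genes listed for squamous epithelium was higher in esophageal organoids by at least 1 probe, although *Trp63* had another probe that was higher in stomach organoids, and all 12 genes listed for columnar gastric epithelium were higher in stomach organoids. None of the 5 immune, 4 endothelial and 4 enteroendocrine genes passed limma's test, and 2, 1 and 0 of them had an unadjusted p under 0.05. That test compares the tissues and does not show that such cells were absent. On at least 1 array, 2 immune, 2 endothelial and 3 enteroendocrine genes were well above background. Of 5 parietal and chief cell genes, 3 were higher in stomach organoids, against 8.33% of all gene names. Between 45.5% and 51.1% of the non-control spots of an array passed the scanner's flag for signal well above background, and none was saturated. In bulk RNA, fewer cells of a type and less RNA per cell cannot be told apart.

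In the embryo the gut tube is divided along its length by transcription factors whose territories border each other. *Nkx2-1* marks the ventral foregut that becomes thyroid, trachea and lung, *Barx1* acts in the mesenchyme of the stomach, *Pdx1* acts in pancreas, antrum and duodenum, and *Cdx1* and *Cdx2* set intestinal identity. *Pax9* and *Pitx1* are known from the pharynx, the mouth and stratified epithelia, *Barx2* is a relative of *Barx1*, and *Nkx6-3* is a gene of the gastric glands. All of these encode homeodomain proteins except *Pax9*, a paired box gene whose product lacks a complete homeodomain, so that the name homeobox fits it only loosely.

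The 9 genes fell into 3 groups by tissue. *Pitx1*, *Pax9* and *Barx2* were higher in esophageal organoids, *Cdx2*, *Nkx6-3* and *Pdx1* were higher in stomach organoids, and *Nkx2-1*, *Barx1* and *Cdx1* were well above background on no array. Of the 12 probes, 8 passed limma's moderated test at an adjusted p (Benjamini-Hochberg over all probes) under 0.05, against 12.2% of all probes tested, and 5 of these were higher in esophageal and 3 in stomach organoids, against 5.94% and 6.22%. Among probes bright enough to pass the background flag on all 3 arrays of a tissue, the share called was 25.1%. Counted by gene, 6 of 9 had a called probe, against 16.2% of gene names. The median absolute log2 difference was 2.40 over the 12 probes and 0.22 over all probes. In 9 of the 12 probes the 3 esophageal and 3 stomach values did not overlap, against 28.6% of all probes with a value on every array. Values are the deposited log2 intensities unless stated otherwise, and differences are esophagus minus stomach on that log2 scale.

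**Figure D1:**
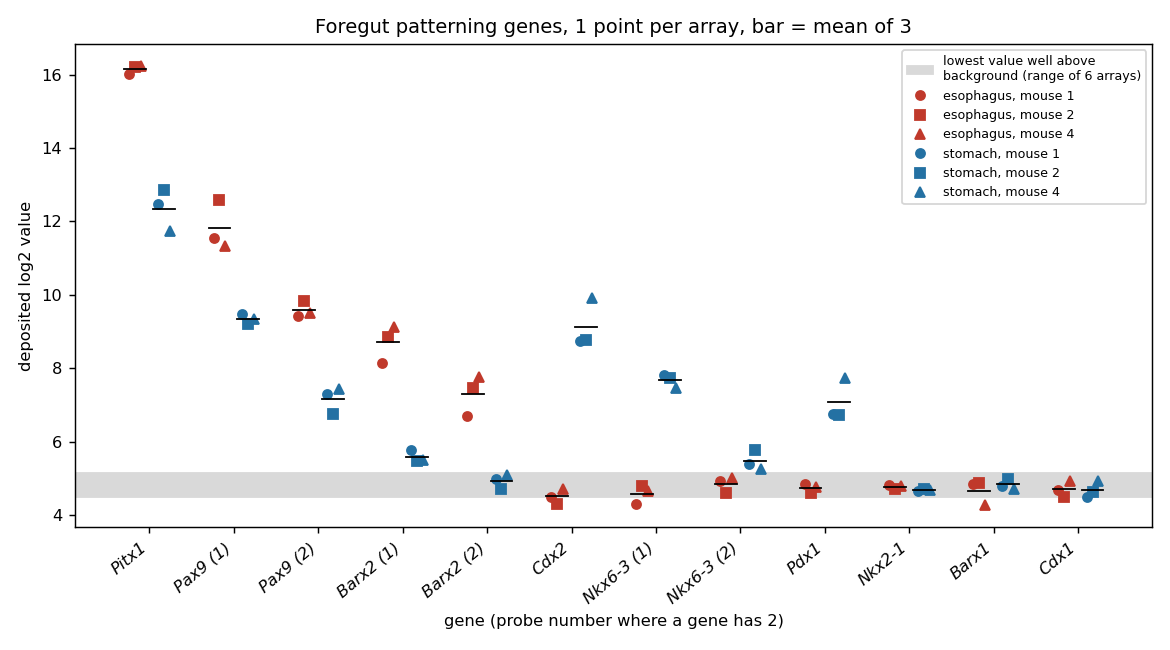
Deposited log2 values (y axis) of the 12 probes of the 9 genes (x axis), with 1 point per array, red for esophageal and blue for stomach organoids, symbols by mouse, and bars at the mean of 3 arrays. The grey band spans the lowest values called well above background on the 6 arrays, 4.49 to 5.13, and *Nkx2-1*, *Barx1* and *Cdx1* lie between 4.26 and 4.99 in both tissues.

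*Pitx1*, a paired-class homeobox gene known for hindlimb and pituitary development, was higher in esophageal organoids. Its probe lies at chr13:55926417-55926476 (mm9, minus strand) in transcript NM_011097. The esophageal arrays of mice 1, 2 and 4 read 16.02, 16.22 and 16.24, and the stomach arrays read 12.47, 12.86 and 11.73. The esophageal values lay within a narrow span and the stomach values all lay below them, with stomach replicate 4 the lowest. The mean was 16.16 ± 0.12 (SD, n = 3) in esophageal and 12.35 ± 0.58 in stomach organoids, a 14.0-fold difference (log2 3.81, SE 0.28, limma adjusted p = 7.86e-05). All 6 arrays were well above background, so that *Pitx1* RNA was measured in stomach organoids as well.

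*Pax9*, which is needed for derivatives of the pharyngeal pouches and is expressed in the epithelium of tongue and esophagus, was measured by 2 probes of transcript NM_011041. The probe at chr12:57811230-57811289 (mm9, plus strand) read 11.55, 12.59 and 11.33 in esophageal and 9.49, 9.20 and 9.34 in stomach organoids. Stomach values were close together, and the esophageal array of mouse 2 stood above the other two. The difference was 5.56-fold (log2 2.47, SE 0.32, limma adjusted p = 0.00169). The other probe, at chr12:57812158-57812217, read 9.43, 9.82 and 9.51 against 7.30, 6.75 and 7.44, a 5.37-fold difference (log2 2.42, SE 0.22, limma adjusted p = 0.00025). Both probes were well above background on all 6 arrays and separated the tissues by nearly the same amount.

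*Barx2*, a BarH-like homeobox gene known from muscle, cartilage and epithelial development, also had 2 probes, both of transcript NM_013800. The probe at chr9:31653924-31653983 (mm9, minus strand) read 8.13, 8.86 and 9.13 in esophageal and 5.78, 5.47 and 5.50 in stomach organoids. All esophageal values lay above all stomach values, and 2 of the 3 stomach arrays were still well above background. The log2 difference was 3.12 (SE 0.26, limma adjusted p = 0.00017). It ranged from 2.42 to 4.22 over the fits, and because 1 stomach array was at background no exact fold is given. The probe at chr9:31654350-31654409 read 6.69, 7.47 and 7.75 against 4.99, 4.71 and 5.08, and it was well above background on no stomach array. For such a gene the fold is a bound, in which each array of the dim tissue takes the higher of its own value and the lowest value that counted as well above background on that array. The bound concerns only the level of the dim tissue in the deposited values. It covers neither the spread between arrays nor another background offset. By this rule esophageal organoids were at least 4.90-fold higher (limma adjusted p = 0.000988 for the measured log2 difference of 2.37). Esophageal replicate 1 was the lowest of its tissue in both probes.

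*Cdx2*, the caudal-type factor that directs intestinal differentiation, was higher in stomach organoids. Its probe at chr5:148112547-148112606 (mm9, minus strand, transcript NM_007673) read 4.50, 4.30 and 4.71 in esophageal and 8.73, 8.76 and 9.91 in stomach organoids. No esophageal array was well above background and all 3 stomach arrays were, so that the gene was not at background in the corpus-derived cultures although it served as an off-lineage intestinal control. Stomach organoids were at least 18.1-fold higher (measured log2 difference −4.63, SE 0.32, limma adjusted p = 6.10e-05). Replicate 4 lay 1.17 above the mean of replicates 1 and 2, and without it the log2 difference was −4.24. *Cdx1*, the other intestinal caudal-type gene, was well above background on no array, with values of 4.67, 4.49 and 4.93 in esophageal and 4.49, 4.63 and 4.92 in stomach organoids. Its log2 difference was 0.02 with a 95% interval of −0.41 to 0.44 (limma adjusted p = 0.972). Its sign turned in the fits on scanner means, under 75th percentile scaling and with the slide as a block. It also turned without stomach replicate 1, stomach replicate 2 or esophageal replicate 4, so that no direction is given.

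*Pdx1*, which is needed for the pancreas and acts in antrum and duodenum, was also higher in stomach organoids. The probe at chr5:148086570-148086629 (mm9, plus strand, transcript NM_008814) read 4.84, 4.60 and 4.77 in esophageal and 6.76, 6.72 and 7.74 in stomach organoids. The esophageal arrays were all at background, and stomach replicate 4 again exceeded the other two, here by 1.0 over their mean. Stomach organoids were at least 4.30-fold higher (measured log2 difference −2.34, SE 0.28, limma adjusted p = 0.00118), and the log2 difference was −2.0 without stomach replicate 4.

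*Nkx6-3*, an NK-type homeobox gene known from gastric glands and their endocrine cells, had 2 probes of transcript NM_029002 that gave different results. The probe at chr8:24268914-24268973 (mm9, plus strand) read 4.30, 4.80 and 4.65 in esophageal and 7.82, 7.74 and 7.45 in stomach organoids, and stomach organoids were at least 6.55-fold higher (measured log2 difference −3.08, SE 0.19, limma adjusted p = 2.79e-05). The probe at chr8:24268527-24268586 read 4.92, 4.60 and 5.0 against 5.40, 5.76 and 5.25. These values did not overlap either, yet the stomach values were near background, with 2 of 3 arrays well above it. The log2 difference of −0.63 (SE 0.19, limma adjusted p = 0.078) did not pass. It passed with scanner means and a background offset of 16 (−0.63, limma adjusted p = 0.0364) and with 75th percentile scaling (−1.99, limma adjusted p = 0.0106). It passed too with trend and robust variances (−0.63, limma adjusted p = 0.0498). It also met the study's rule of an unadjusted p under 0.05 with a 1.5-fold change. Unlike *Cdx2* and *Pdx1*, the first of these probes was lowest in stomach replicate 4, by 0.33 below the mean of the other two.

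*Nkx2-1*, the factor of lung and thyroid, was measured by 10 spots of a single probe at chr12:57633119-57633178 (mm9, minus strand, transcript NM_009385). The spot means were 4.81, 4.70 and 4.79 in esophageal and 4.66, 4.72 and 4.67 in stomach organoids. All 59 spot values lay between 4.36 and 5.40, and no array was well above background. The log2 difference was 0.08 with a 95% interval of −0.22 to 0.39 (limma adjusted p = 0.781). *Barx1*, whose product restrains Wnt signaling from the mesenchyme of the embryonic stomach, read 4.84, 4.88 and 4.26 in esophageal and 4.80, 4.99 and 4.72 in stomach organoids at chr13:48761442-48761501 (mm9, plus strand, transcript NM_007526). No array was well above background for it, and the log2 difference was −0.18 with a 95% interval of −0.65 to 0.29 (limma adjusted p = 0.68). Its sign turned without esophageal replicate 4, where the difference was 0.02. Values this low bound the signal of these probes and do not show that the RNA is absent.

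**Figure D2:**
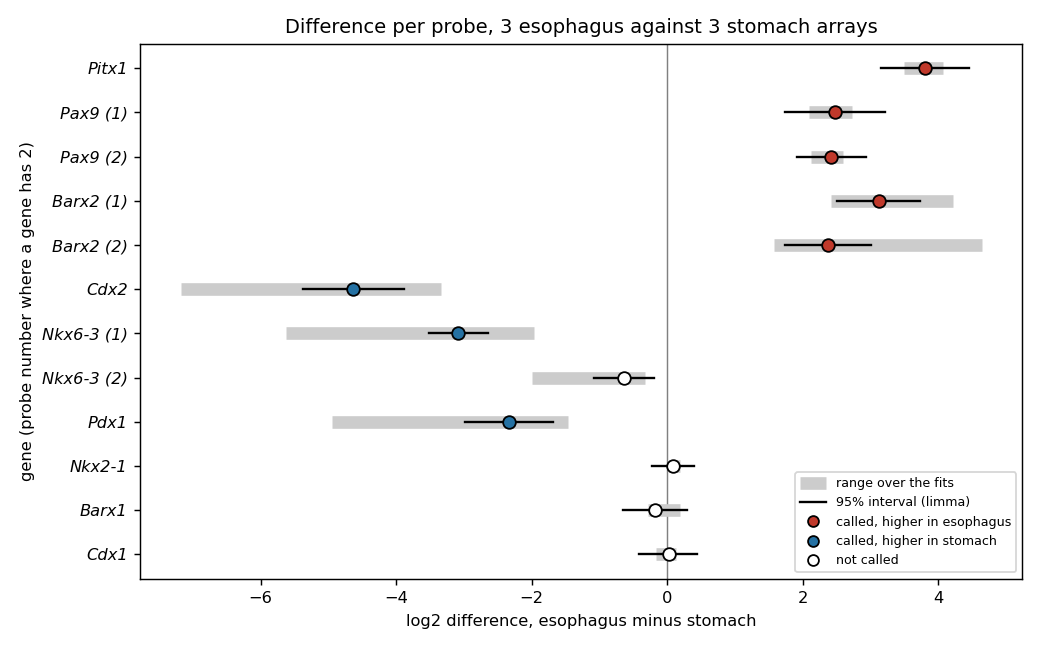
Log2 difference, esophagus minus stomach (x axis), of each of the 12 probes (y axis). Points are the values of the deposited table, black lines the 95% intervals of limma, and grey bars the range over the main and alternative fits. All 8 called probes stay on their side of 0, and the grey bars of *Cdx2*, *Nkx6-3* and *Pdx1* are the widest, with *Cdx2* reaching from −7.18 to −3.33.

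The 8 called probes were called in each of the 13 other fits, namely scanner means with background offsets of 16 and 50, 75th percentile scaling, a filter on dim probes, trend and robust variances, the mouse as a block, the slide as a block and each array left out. Not all of these fits are separate checks. Values at the offset of 16 differed from the deposited ones by a median of 0.049, and the slide block equals leaving out esophageal replicate 4. The size of the 8 differences was less firm where some or all arrays of the dim tissue were at background. Under 75th percentile scaling, where the median over all probes was 0.19 against 0.02 in the deposited values, the log2 difference was −4.95 for *Pdx1*, −5.62 for *Nkx6-3*, −7.18 for *Cdx2* and 4.22 and 4.65 for the *Barx2* probes, while *Pitx1* (4.07) and *Pax9* (2.66 and 2.60) moved little. With scanner means and a background offset of 50 the same differences shrank. They were −1.46 for *Pdx1*, −1.97 for *Nkx6-3*, −3.33 for *Cdx2* and 2.42 and 1.58 for *Barx2*. In size, the log2 bounds from the deposited values were 2.1 for *Pdx1*, 2.71 for *Nkx6-3*, 4.18 for *Cdx2* and 2.29 for the dimmer *Barx2* probe. The bounds therefore did not hold at this offset. The differences of *Pitx1* (3.77) and *Pax9* (2.38 and 2.12) moved less. An exact permutation test of 3 against 3 arrays cannot give a p below 0.1, so that the p-values rest on the variance that limma shares across probes.

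*Pdx1* and *Cdx2* are neighbors on chromosome 5, where *Gsx1* lies before *Pdx1* and *Urad* and *Flt3* follow *Cdx2* in the RefSeq gene order. *Gsx1*, *Pdx1* and *Cdx2* form the ParaHox cluster, a sister group of the Hox clusters. *Gsx1* and *Urad* were well above background on no array, with log2 differences of −0.05 (SE 0.18, limma adjusted p = 0.921) and 0.20 (SE 0.15, limma adjusted p = 0.505). *Flt3*, a receptor of blood progenitors, read 5.47, 5.99 and 6.53 in esophageal and 5.64, 5.53 and 5.61 in stomach organoids and did not pass (log2 0.40, SE 0.26, limma adjusted p = 0.425). Within this stretch of 5 genes, then, the calls fell on *Pdx1* and *Cdx2*.

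The 250 bases upstream of the RefSeq start sites of *Pdx1* and *Cdx2* are shown because both neighbors were called in the same direction, with stomach replicate 4 the highest for both. They come from RefSeq on GRCm38.p6, at chr5:147269847-147270096 (plus strand) and chr5:147307250-147307499 (minus strand), and are read 5′ to 3′ along the gene. Capitals mark matches, on either strand, to the letters CACGTG of an E-box, to the CCAAT box (those 5 letters), to an octamer (ATGCAAAT) and to the forkhead letters TGTTTAC. These motifs and the letters TATAAA of a TATA box were chosen after the sequences had been read.
Pdx1: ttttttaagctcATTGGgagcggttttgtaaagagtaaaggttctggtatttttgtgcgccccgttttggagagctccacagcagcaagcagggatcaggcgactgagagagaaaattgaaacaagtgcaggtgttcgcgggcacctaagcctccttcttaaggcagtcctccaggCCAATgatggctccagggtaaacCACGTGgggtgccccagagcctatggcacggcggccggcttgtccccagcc
Cdx2: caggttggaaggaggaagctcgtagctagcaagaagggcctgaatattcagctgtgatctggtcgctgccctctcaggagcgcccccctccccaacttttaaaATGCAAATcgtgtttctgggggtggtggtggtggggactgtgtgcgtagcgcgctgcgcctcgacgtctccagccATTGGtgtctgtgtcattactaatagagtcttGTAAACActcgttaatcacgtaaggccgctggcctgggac
The *Pdx1* window held the E-box 51 to 46 bases before the start and 2 CCAAT matches, at 238 to 234 bases (as ATTGG) and at 74 to 70 bases. The *Cdx2* window held the octamer 147 to 140 bases before the start, a CCAAT match at 72 to 68 bases (as ATTGG) and the forkhead motif at 40 to 34 bases (as GTAAACA). Both windows shared the CCAAT box, which 33.8% of 32851 promoter windows of the same length held. An E-box was found in 6.02%, the octamer in 1.6%, the forkhead motif in 3.17% and the TATA box in 12.4% of these windows. The letters TATAAA were in neither window. The windows contained 10 and 13 CG pairs, against a median of 6 over all promoters. Promoters were held for 5 of the 9 genes, and the windows of *Pax9*, *Nkx2-1* and *Barx1* held none of the 5 motifs. As the motifs were chosen after the sequences had been read, the shares do not test whether a match is unusual. A match describes the letters only, and binding of these factors was not measured.

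*Nkx2-1* and *Pax9* lie on the same chromosome with *Nkx2-9* between them. *Nkx2-9*, an NK-type gene known from the neural tube and the lung, read 9.52, 6.38 and 7.94 in esophageal and 4.71, 4.56 and 5.17 in stomach organoids. It was well above background on all esophageal arrays and on no stomach array, at least 7.99-fold higher in esophageal organoids (measured log2 difference 3.13, SE 0.68, limma adjusted p = 0.0222). The esophageal arrays spread widely, and the call was lost in 6 of 13 other fits, among them those without stomach replicate 1, stomach replicate 2 or esophageal replicate 4, with an adjusted p of up to 0.0973. *Slc25a21*, the gene after *Pax9*, was well above background on no array (log2 difference 0.02, SE 0.17, limma adjusted p = 0.955). Along the chromosome, *Nkx2-1* and *Slc25a21* were thus at background, and *Nkx2-9* and *Pax9* between them were higher in esophageal organoids. *Pax9* was well above background in stomach organoids too, and the call of *Nkx2-9* was the one lost in 6 of 13 other fits.

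**Figure D3:**
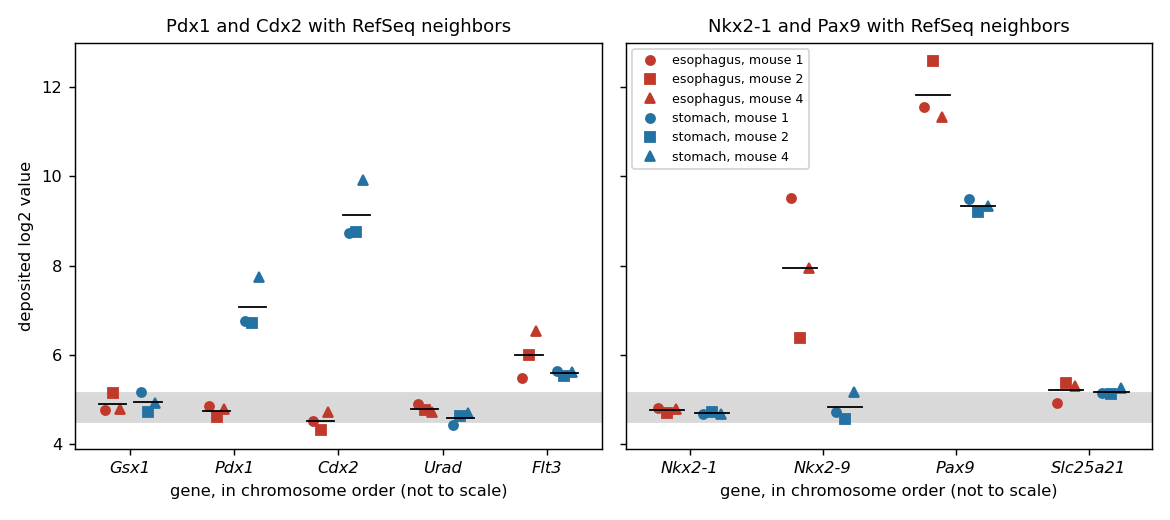
Deposited log2 values (y axis) of *Pdx1* and *Cdx2* (left) and of *Nkx2-1* and *Pax9* (right) with their RefSeq neighbors in chromosome order (x axis, not to scale), 1 point per array, bars at the mean of 3. Stomach values rise above the grey background band (4.49 to 5.13) at *Pdx1* and *Cdx2*, while esophageal values of *Nkx2-9* spread from 6.38 to 9.52.

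Related genes gave the setting of the 9 genes. Of 60 other homeobox genes listed for the gut, 20 had a called probe, 10 in each direction, against 16.2% of all gene names, and 19 were well above background on no array. The list's median log2 difference was 0.07, against 0.03 over all genes. Without stomach replicate 2 the count was 13. In all 13 other fits, 11 of the 20 genes were called. Higher in stomach organoids among these were *Onecut2*, *Onecut3* and *Hhex*, factors known from liver, pancreas and intestine, *Isl1*, a LIM factor of endocrine cells, *Isx*, an intestine-specific homeobox gene, and *Meis3*. *Onecut3* read 4.40, 4.65 and 5.03 in esophageal and 8.14, 8.49 and 8.83 in stomach organoids, at least 10.8-fold higher in the latter (measured log2 difference −3.80, SE 0.23, limma adjusted p = 3.19e-05). *Isx* rose to 6.46, 6.28 and 7.07 in stomach organoids from background (4.88, 4.80 and 4.83), at least 3.08-fold (limma adjusted p = 0.00136).

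Higher in esophageal organoids in all fits were *Msx1*, *Msx2*, *Dlx4* and *Hopx*. *Hopx*, an atypical homeodomain protein, read 15.73, 15.95 and 13.83 in esophageal and 10.78, 10.46 and 11.13 in stomach organoids (log2 4.38, SE 0.52, limma adjusted p = 0.00118), and esophageal replicate 4 was the lowest of its tissue by far. *Dlx4*, a distal-less gene, was at least 6.33-fold higher in esophageal organoids (limma adjusted p = 0.000403). *Irx1*, an Iroquois gene, spread over 11.01, 9.94 and 6.72 in esophageal organoids against 4.69, 4.75 and 4.98 at background, at least 20.4-fold higher (measured log2 difference 4.42, SE 0.94, limma adjusted p = 0.0205), and its call was lost without stomach replicate 1, stomach replicate 2 or esophageal replicate 2 and in 2 further fits. The cofactors *Pbx2* and *Pbx3* were well above background on all 6 arrays and did not pass, with log2 differences of −0.28 and −0.38.

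Of the 8 other Pax genes, relatives of *Pax9* in the paired box family, 0 passed limma's test, and 1 had an unadjusted p under 0.05. That gene was *Pax8*, a factor of thyroid and kidney, which read 4.94, 5.11 and 4.77 in esophageal and 6.20, 5.53 and 7.41 in stomach organoids (log2 −1.44, SE 0.42, unadjusted p = 0.00989). The list's count of called genes was 1 without stomach replicate 2 or 4, under 75th percentile scaling and with the filter on dim probes. *Pax2* to *Pax7* were well above background on no array.

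The intestinal genes among which *Cdx1* and *Cdx2* act did not move as a block. Of 26 listed, 12 had a called probe, 10 of them higher in stomach and 2 in esophageal organoids, against 8.33% and 7.88% of all gene names, and the list's median log2 difference was −0.33. The 9 that were higher in stomach organoids in every fit were the apolipoprotein genes *Apoa1* and *Apob*, the brush border genes *Vil1* and *Anpep*, the mucin *Muc13*, the Paneth cell lysozyme *Lyz1*, the goblet cell gene *Clca1*, and *Gpa33* and *Lgals4*. *Vil1*, which encodes villin, read 5.44, 5.44 and 5.46 in esophageal and 13.34, 13.38 and 13.97 in stomach organoids (measured log2 difference −8.12, SE 0.20, limma adjusted p = 2.53e-07), and no esophageal array was well above background. *Clca1* read 5.33, 5.11 and 4.83 against 16.30, 15.61 and 15.11 (measured log2 difference −10.58, SE 0.30, limma adjusted p = 5.34e-07). Several of these, *Vil1* and *Lyz1* among them, are known from stomach epithelium too, and the list was not chosen to be absent from it.

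Of the 26 intestinal genes, 5 were well above background on no array. They were *Sis*, *Lct*, *Apoa4*, *Olfm4* and *Guca2b*, which mark enterocytes, crypt cells and secretory peptides of the intestine. *Sis*, sucrase-isomaltase, read 4.84, 5.25 and 5.05 in esophageal and 5.20, 4.85 and 4.95 in stomach organoids, and *Olfm4* read 4.48, 4.91 and 4.68 against 4.63, 4.71 and 4.83. *Muc2*, the goblet cell mucin, read 5.58, 5.60 and 4.99 against 5.95, 5.56 and 5.93 and did not pass (log2 −0.43, 95% interval −0.93 to 0.07). It was well above background on 2 esophageal and 3 stomach arrays. *Fabp2* was well above background on all 6 arrays and did not pass (log2 1.90, SE 0.65, limma adjusted p = 0.112). *Rbp2*, a cellular retinol-binding protein of enterocytes, went the other way in every fit, with 11.01, 11.34 and 9.57 in esophageal and 6.55, 6.52 and 6.72 in stomach organoids (log2 4.05, SE 0.41, limma adjusted p = 0.000523). *Slc5a1*, the glucose transporter SGLT1, spread over 11.08, 8.28 and 5.86 in esophageal organoids against 4.80, 4.99 and 4.92 and did not pass (log2 3.51, SE 1.1, limma adjusted p = 0.0872).

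**Figure D4:**
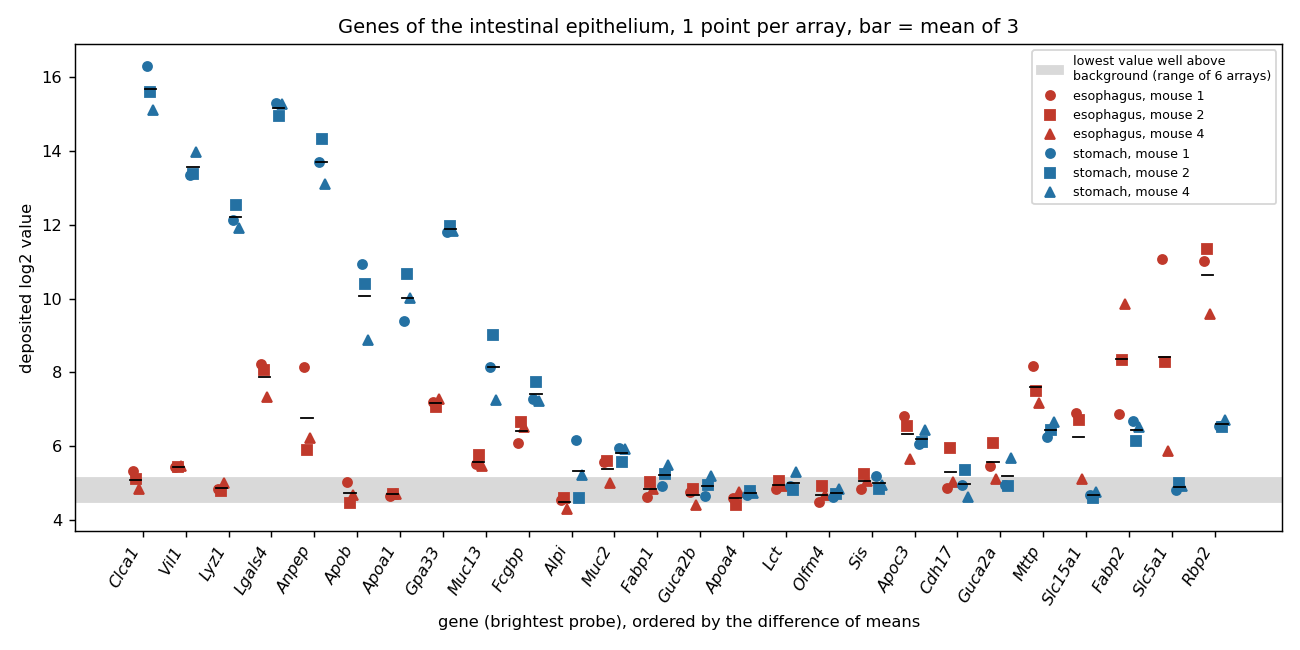
Deposited log2 values (y axis) of the 26 intestinal genes (x axis, brightest probe of each, ordered by the difference of the tissue means), 1 point per array, bars at the mean of 3. *Clca1*, *Vil1* and *Lyz1* stand far above background in stomach organoids, *Sis*, *Lct* and *Olfm4* stay near the grey band (4.49 to 5.13) in both tissues, and *Rbp2* is higher in esophageal organoids.

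Stomach replicate 4 set itself apart for some of these genes and not for others. It exceeded the mean of stomach replicates 1 and 2 by 1.17 for *Cdx2*, 1.0 for *Pdx1* and 0.61 for *Vil1*, while it fell below that mean by more than 1 for *Muc13* (−1.34) and for both *Apob* probes (−1.79 and −2.84). Over all 25872 probes that passed the background flag throughout a tissue and had a value on these arrays, the median of this difference was 0.03, with 3.44% of probes over 1 and 3.98% under −1. The mean over the 12 columnar markers lay between 14.88 and 14.92 on the 3 stomach arrays, while single markers differed in either direction. *Muc6* read 7.39, 8.33 and 9.79 on stomach replicates 1, 2 and 4, and *Muc5ac* read 15.65, 15.03 and 13.26. Of the 4 enteroendocrine genes, none of which passed between tissues, *Chga* read 5.05, 5.19 and 6.69 and *Chgb* 4.97, 4.87 and 5.85, highest on replicate 4, and the list's mean ranged from 5.12 to 6.19 over the stomach arrays. This array was the one harvested on day 7, and the part of the harvest day or of endocrine cells in these values was not tested.

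Genes of the tissues in which *Nkx2-1* acts were called in part, while *Nkx2-1* itself was at background. Of 18 lung and thyroid genes, 8 had a called probe, 3 higher in esophageal and 5 in stomach organoids, against 16.2% of all gene names (7.88% and 8.33%), and the count was 5 when any array other than stomach replicate 4 was left out. *Sftpd*, which encodes surfactant protein D, read 4.80, 4.49 and 4.71 in esophageal and 16, 16.10 and 15.47 in stomach organoids, at least 1910-fold higher in the latter (measured log2 difference −11.19, SE 0.20, limma adjusted p = 8.28e-08). *Abca3*, a lipid transporter of lamellar bodies, was higher in stomach organoids as well (log2 −2.11, SE 0.15, limma adjusted p = 7.85e-05), and *Scgb3a1*, a secretoglobin, was at least 2.20-fold higher in stomach organoids. The 3 genes higher in esophageal organoids were *Hopx*, *Foxe1* and *Lamp3*, with measured log2 differences of 4.38, 1.13 and 0.62. *Hopx* was called in every fit, while *Foxe1* and *Lamp3* lost their calls in some fits. *Sftpa1*, *Sftpb*, *Sftpc* and *Tshr*, which define the lung alveolus and the thyroid, were well above background on no array.

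Of 21 genes of antrum, pancreas and duodenum, tissues in which *Pdx1* acts, 4 had a called probe, 2 in each direction, a share near the 16.2% of all gene names, and 12 were well above background on no array, *Gast* among them, the gastrin gene of antral G cells. The count was 2 without stomach replicate 1, stomach replicate 2 or esophageal replicate 2. *Cela1*, a pancreatic elastase gene, was higher in stomach organoids, at least 8.35-fold (limma adjusted p = 1.97e-05), and was called in every fit.

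Mesenchymal genes were followed because *Barx1* is a gene of the stomach mesenchyme and because other cells could remain in a first culture. Of 20 listed, 4 had a called probe, against 16.2% of all gene names, and all 4 were higher in esophageal organoids, against 7.88%. On no array were 8 of the 20 well above background, among them *Lum*, *Postn*, *Pdgfra*, *Pdgfrb* and *Myh11*. *Tagln* was well above background on all 6 arrays and did not pass (means 9.69 in esophageal and 9.61 in stomach organoids, limma adjusted p = 0.956). *Acta2*, measured by 10 spots, had at least 1 flagged spot on all 6 arrays and did not pass, with 6.69 on esophageal replicate 2 and 4.74 to 4.97 on the others. The latter values lie within the background band of 4.49 to 5.13. The list's mean log2 value ranged from 5.55 to 5.74 on esophageal and from 5.07 to 5.23 on stomach arrays. *Twist2*, a basic helix-loop-helix factor, read 7.40, 7.81 and 7.85 against 4.85, 4.63 and 4.49 (at least 7.17-fold, limma adjusted p = 2.77e-05), and *Twist1* and *Sfrp1*, a secreted WNT inhibitor, were likewise called in every fit. *Foxf2*, a forkhead factor of gut mesenchyme, lost its call without stomach replicate 1, stomach replicate 2 or esophageal replicate 2. The call was also lost with scanner means and a background offset of 50. The part of remaining mesenchymal cells in the values of the 9 genes was not tested.

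Genes whose pattern over the 6 arrays was most like that of each called gene were ranked by Pearson's r to its brightest probe, as a description with no test, because any gene that separates the tissues scores high. For *Cdx2* these were *Alox5ap*, *Tmed6* and *Coro2b* (r = 0.9998, 0.9998 and 0.9996), for *Pdx1* *Mep1b*, *Plcb1* and *Btbd17* (0.9989, 0.9982 and 0.998), and for *Nkx6-3* *Abcc5*, *Gpd1* and *Mia3* (0.9995, 0.9993 and 0.9992). On the esophageal side they were *Fam53b*, *Evc2* and *Vangl1* for *Pitx1* (0.9986, 0.9985 and 0.9978), *Aadacl2*, *Thbd* and *Dsp* for *Pax9* (0.9983, 0.9965 and 0.9959) and *Tns1*, *Pcdh17* and *Gna15* for *Barx2* (0.9997, 0.9993 and 0.9981). Between 3.06% and 6.44% of the 25852 probes compared had an r over 0.95 with one of the 6 genes. *Dsp* encodes desmoplakin of squamous cell junctions, and *Mep1b* a brush border protease.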

How the data were processed

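RNA of 6 organoid cultures was hybridized to single-color Agilent 8x60K mouse arrays. Per the submitters' processing notes and the file headers, probe signals were obtained with Agilent Feature Extraction (version 11.5.1.1). For every spot, the deposited scanner tables give its intensity, local background and flags, not normalized. The authors background corrected and quantile normalized the deposited log2 values, whose offset is not given in the sources used here; their 2029 empty cells were the 2029 outlier-marked spots. These log2 values were used as deposited, and spots of a probe were averaged. Their rows were named by the spot number of the scanner files, and each column matched its own scanner array best. In R 4.3.3 with limma 3.58.1, a linear model per probe (lmFit, then eBayes) was fitted to all 55681 non-control probes with Benjamini-Hochberg adjustment and without covariates, and a gene counted when at least 1 probe passed. A probe was well above background on an array when at least 1 of its spots there carried the scanner's flag. Data of 55641 probes were simulated with normal noise, and 50 probes were changed at each of 4 sizes. Of those changed by 1, 2, 3 and 4 on the log2 scale, 34%, 82%, 94% and 98% were recovered, with 6 false calls. A far larger share of probes, 12.2%, was called in the real data, so these recoveries need not carry over to it. Alternatives were scanner mean intensity with normexp (offset 16 or 50) and quantile normalization, processed signal scaled to the 75th percentile, a filter on dim probes, eBayes with trend and robust variances, a block for mouse or for slide, each array left out, and the study's rule of an unadjusted p under 0.05 with a 1.5-fold change.

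The mouse number pairs the arrays by animal. Within a mouse, the 2 arrays' deviations from their tissue's mean had an r across probes of 0.042, 0.023 and −0.002, and between mice r lay between −0.091 and 0.04. Slide 1 held 5 arrays and slide 2 only esophageal replicate 4, so that the fit with the slide as a block equals the fit without that array. The named genes were, by rule, the 9 genes with every probe, genes called in each list, genes of a list well above background on all 6 arrays, and the 3 genes most like each called gene, from which examples were taken after the values had been seen; genes at background and chromosome neighbors are named outside this rule. Some genes of the lists are counted but not reported here by name. Members and gene lists were chosen with earlier results of these data known. The number of arrays limits the precision. Probe coordinates are those of the scanner files (mm9), while promoter sequences and gene order come from RefSeq tables of GRCm38.p6, and exon or UTR positions of the probes were not analysed here. Python 3.11.15 with pandas 2.3.3 and matplotlib 3.10.9 was used for tallies and plots.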

Additional observations from a re-analysis of the deposited data

How the results depend on the processing

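All 8 called probes of the 9 genes kept their direction and their call in the 13 other fits and under the study's rule of an unadjusted p under 0.05 with a 1.5-fold change. With the mouse as replicate block, the differences and the count of 8 were the same and the block changed no call of the 12 probes, nor did any count of calls move by over 1.5 times: 6153 of all probes, 18 other gut homeobox, 0 Pax, 11 intestinal, 6 lung and thyroid, 3 antrum, pancreas and duodenum and 4 mesenchyme genes were called. 2 probes at background changed sign. *Barx1* turned to 0.19 under 75th percentile scaling and to 0.02 with the slide as a block. *Cdx1* turned to −0.09 and −0.04 with scanner means and background offsets of 16 and 50. It turned to −0.17 under 75th percentile scaling and to −0.10 with the slide as a block. With arrays left out in turn, *Barx1* ranged from −0.29 to 0.02 and *Cdx1* from −0.10 to 0.13. Of the Pax family 1 gene was called under 75th percentile scaling, with the filter on dim probes and under the study's rule, and 5 lung and thyroid genes with the slide as a block. Leaving out each array gave 4091 to 7415 calls over all probes (4091 without stomach replicate 1 and 4152 without stomach replicate 2), 13 to 20 other gut homeobox, 0 to 1 Pax, 5 to 7 lung and thyroid and 2 to 4 antrum, pancreas and duodenum genes. Fewer arrays were left in these fits. Probes at background have signals that give only bounds, and the size of their differences moved with the background offset. The cause of the other changes was not tested.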

Other observations

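The RefSeq neighbors of the other genes gave further differences. *Ank1*, an ankyrin gene next to *Nkx6-3*, read 4.88, 4.91 and 5.0 in esophageal and 6.73, 6.35 and 7.48 in stomach organoids, at least 3.51-fold higher in the latter (limma adjusted p = 0.00289), and it was called in all 13 other fits. *Ptpdc1*, a phosphatase gene next to *Barx1*, read 10.05, 10 and 9.43 in esophageal and 6.46, 6.26 and 6.75 in stomach organoids (log2 3.34, SE 0.22, limma adjusted p = 4.3e-05), and it too was called in all 13 other fits, while *Barx1* itself was at background. *Phf2*, on the other side of *Barx1*, was also higher in esophageal organoids (log2 0.93, SE 0.20, limma adjusted p = 0.0213), but its call was lost in 6 of 13 other fits, those under 75th percentile scaling, with the slide as a block and without stomach replicate 1, stomach replicate 2, esophageal replicate 2 or esophageal replicate 4. *Tmem45b*, next to *Barx2*, read 10.92, 10.18 and 5.90 in esophageal and 14.24, 14.26 and 14.12 in stomach organoids (log2 −5.20, SE 1.14, limma adjusted p = 0.0227). Its call was lost without stomach replicate 1, 2 or 4 and with trend and robust variances, and esophageal replicate 4 lay far below the other 2 esophageal arrays. *Catsper3* and *Macroh2a1*, which flank *Pitx1*, did not pass, with log2 differences of −0.21 and −0.11.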
